A study of Mus musculus with 18 samples.

Results

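ATF4 is a transcription factor of the integrated stress response, and the genes described here are 38 named targets and partners of it: regulators of the stress response, enzymes that make serine, one-carbon units, asparagine, proline, alanine and cysteine, 4 further targets, and 12 cytosolic tRNA synthetases. They were chosen by name, with earlier results of these data known, and each was read from its brightest probe set. Of the 38, 36 had a probe set of their own and all 36 passed the filter on dim genes, out of 15711 genes that passed in all. Pycr1, a proline synthesis enzyme, and Aars, alanyl-tRNA synthetase, were not read by a probe set that names them alone.

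The arrays measured total RNA of mouse embryonic fibroblasts of strain 129sv/ev in 6 groups of 3, numbered 1, 2 and 4 in each group. The groups were a line with Nfat5 knocked out (KO) in hypertonic and in isotonic medium, then a line with intact Nfat5 (WT) in hypertonic and in isotonic medium after pretreatment with Torin1, an inhibitor of the kinase mTOR, at 100 nM for 1 h, and the same line in hypertonic and in isotonic medium without Torin1. The titles give 500 for hypertonic and 300 for isotonic medium without a unit, and the labels used here give no time in hypertonic medium. Each genotype is a single line, so genotype and line cannot be told apart, and Torin1 was not combined with the KO line. Isotonic KO array 1 is a KO array by its title and a wild-type array by its genotype label; it was grouped by its title, and results without that choice are given where they differ. Its level of Stc2, given below, lay with the other KO arrays and not with the WT arrays.

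Levels below are log2 RMA signals, and changes are differences of group means on that scale with a standard error from limma. Array medians lay between 6.96 and 7.13 over all probe sets. Over the 19937 genes used, they lay between 7.53 and 7.57 in the 3 hypertonic KO arrays and between 7.64 and 7.74 in the other 15, so the hypertonic KO arrays stand apart and their comparisons are also given with arrays centred. Arrays of a group correlated at 0.982 to 0.995, and the number of arrays limits the precision. Nfat5 itself, the gene knocked out, read 9.73 to 10.22 in hypertonic KO arrays, against 10.18 to 10.77 in hypertonic WT arrays; it read 9.72 to 9.83 in isotonic KO arrays, against 9.94 to 10.13 in isotonic WT arrays. The labels do not say which part of the gene is deleted, so this probe set does not check the deletion. Of 12 fibroblast markers, 11 lay above the filter in every array, and Lum, a matrix proteoglycan, ranged from 4.14 to 7.68. Of 6 macrophage markers 3 lay above it in every array: Cd68 (7.63 to 8.66), Csf1r (7.08 to 9.36) and Cd14 (6.68 to 8.98). The leukocyte marker Ptprc stayed between 5.36 and 5.90. Of 5 epithelial markers 4 lay above it in every array, of 4 endothelial markers 1, and of 3 muscle markers 2. Among 3 neuronal markers 2 did, and among 3 pluripotent markers 1. The endothelial marker Tek ranged from 5.71 to 9.09 and the neuronal marker Stmn2 from 5.64 to 12.55. The labels do not say that the arrays of a group stem from separate cultures; a p-value here therefore covers array-to-array spread, which may be technical.

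When amino acids run short or misfolded proteins build up, kinases phosphorylate the translation factor eIF2, general protein synthesis falls, and Atf4 mRNA is translated more. ATF4 protein pairs with C/EBP factors and binds composite elements in the promoters of amino acid enzymes, transporters and tRNA synthetases, while DDIT3 (CHOP), TRIB3 and PPP1R15A (GADD34) feed back on the response. Growth signalling through mTORC1 is also known to raise ATF4 protein and its amino acid and one-carbon targets, and Torin1 blocks both mTOR complexes. NFAT5 turns on genes for osmolyte uptake and synthesis when the medium becomes hypertonic. Arrays measure mRNA, so they read Atf4 transcript and not ATF4 protein.

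Promoter stretches are shown because these genes were grouped as targets of one factor, whose known element can be looked for in them. The core TGATGNAA of the composite element was searched on both strands of RefSeq windows from 250 bases before to 50 bases after each gene's start in the assembly GRCm38.p6, and no other motif was searched. It stood in 13 of the 31 named genes with a window (41.9%), against 1219 of 27025 genes with a window (4.51%), or 3.97% of 32851 windows. By role it stood in 4 of 9 regulators, 5 of 8 synthetases, 2 of 5 enzymes of asparagine, proline, alanine and cysteine, 2 of 3 other targets, and 0 of 6 serine and one-carbon enzymes. Among genes outside the 38 it stood in 5 of 16 other ATF4-linked genes, in 0 of 5 other cytosolic synthetases and in 0 of 14 mitochondrial synthetases. The stretches below run 5′ to 3′ on the gene's strand with the core, or its reverse complement, in capitals.
Nupr1: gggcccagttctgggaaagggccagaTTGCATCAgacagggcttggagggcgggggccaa
Pck2: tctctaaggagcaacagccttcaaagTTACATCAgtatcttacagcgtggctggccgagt
Chac1: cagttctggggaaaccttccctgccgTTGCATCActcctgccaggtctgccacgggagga
Trib3: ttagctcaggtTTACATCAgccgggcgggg
Yars: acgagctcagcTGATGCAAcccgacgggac
Iars: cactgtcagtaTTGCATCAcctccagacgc
Asns: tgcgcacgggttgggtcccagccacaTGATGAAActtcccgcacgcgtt
These lie at chr7:126625547-126625606 (minus strand) for Nupr1, chr14:55540137-55540196 (plus) for Pck2, chr2:119351023-119351082 (plus) for Chac1 and chr2:152344028-152344057 (minus) for Trib3. Those of the other three genes lie at chr4:129189895-129189924 (plus) for Yars, chr13:49682126-49682155 (plus) for Iars and chr6:7693210-7693258 (minus) for Asns. Counted from the gene's start as 0, the match starts at -110 in Nupr1, at -103 in Pck2, at -193 in Chac1 and at -23 in Asns, all upstream of the start. In Trib3, Yars and Iars it starts at 14, 3 and 7 bases after the start. Nupr1 and Pck2 are shown because they passed a test below, Chac1, Trib3, Yars and Iars for the size of their changes, and Asns as the textbook target, added after its values were seen. A match is a run of letters and not a measured binding site.

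The 18 arrays are first set side by side over all 36 genes. The median over them of the level minus the gene's own mean was 0.10, 0.05 and -0.16 in hypertonic KO arrays 1, 2 and 4, and 0.36, 0.21 and -0.06 in isotonic KO arrays. It was -0.14, -0.10 and -0.46 in hypertonic WT arrays with Torin1, against 0.49, 0.47 and 0.11 in hypertonic WT arrays. It was -0.27, -0.24 and -0.53 in isotonic WT arrays with Torin1, against -0.22, 0.73 and -0.08 in isotonic WT arrays. All 6 Torin1 arrays were therefore below 0, all 3 hypertonic WT arrays above 0, and the isotonic WT arrays on both sides.

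**Figure D1:**
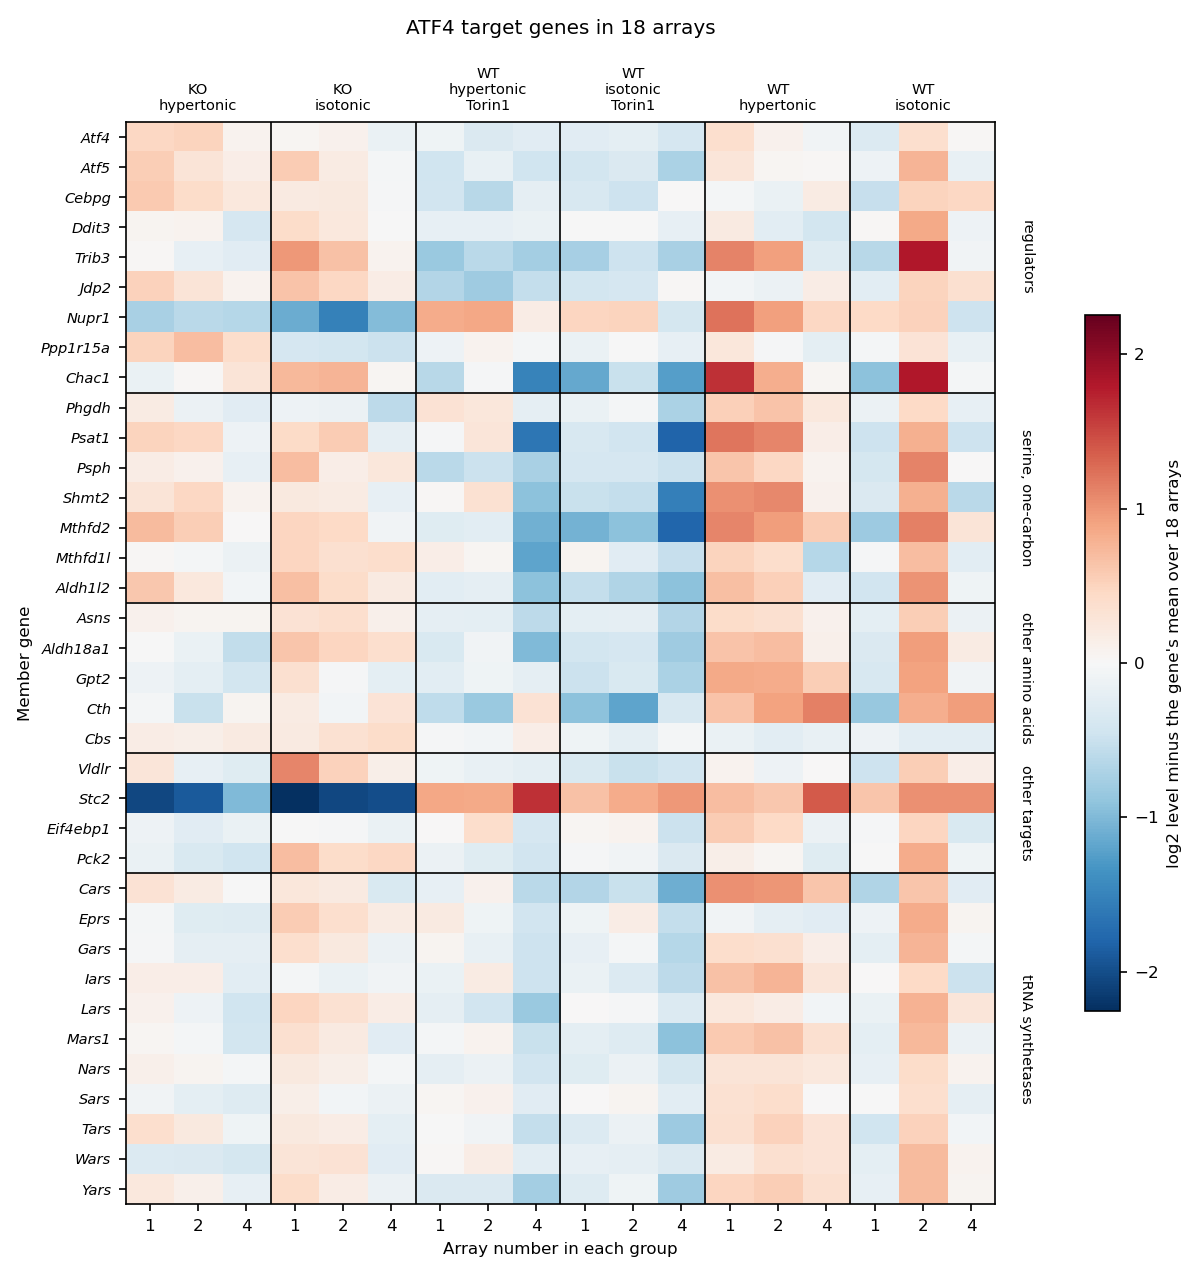
Log2 level minus the gene's mean over the 18 arrays (colour scale, log2) for 36 ATF4 target genes (rows, grouped by role) in 18 arrays (columns, grouped by condition). The Torin1 arrays are mostly blue, the hypertonic WT arrays mostly red, Stc2 and Nupr1 are blue in KO arrays, and isotonic WT array 2 is red for 35 of the 36 genes.

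Isotonic WT array 2 stood apart from its group. It was the highest of its 3 arrays for 34 of 36 members, against 27.4% of all genes tested, and isotonic WT array 1 was the lowest for 24 of 36, against 33.2% of all genes. The range between the 3 arrays had a median of 0.95 over the members in isotonic WT cells and of 0.27 over all genes. In the other 5 groups the members' median range was 0.38 to 0.53. Array 4 was the lowest of its group for 25 to 29 members in those 5 groups, against 39% to 52.7% of all genes. Trib3 and Chac1 show the size of the spread: Trib3, a pseudokinase induced by ATF4, read 7.22, 9.64 and 7.76 in isotonic WT arrays 1, 2 and 4, and Chac1, which degrades glutathione, read 8.20, 10.92 and 9.07. Comparisons with isotonic WT cells below are also given without array 1 or 2; the cause of the spread was not tested.

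**Figure D2:**
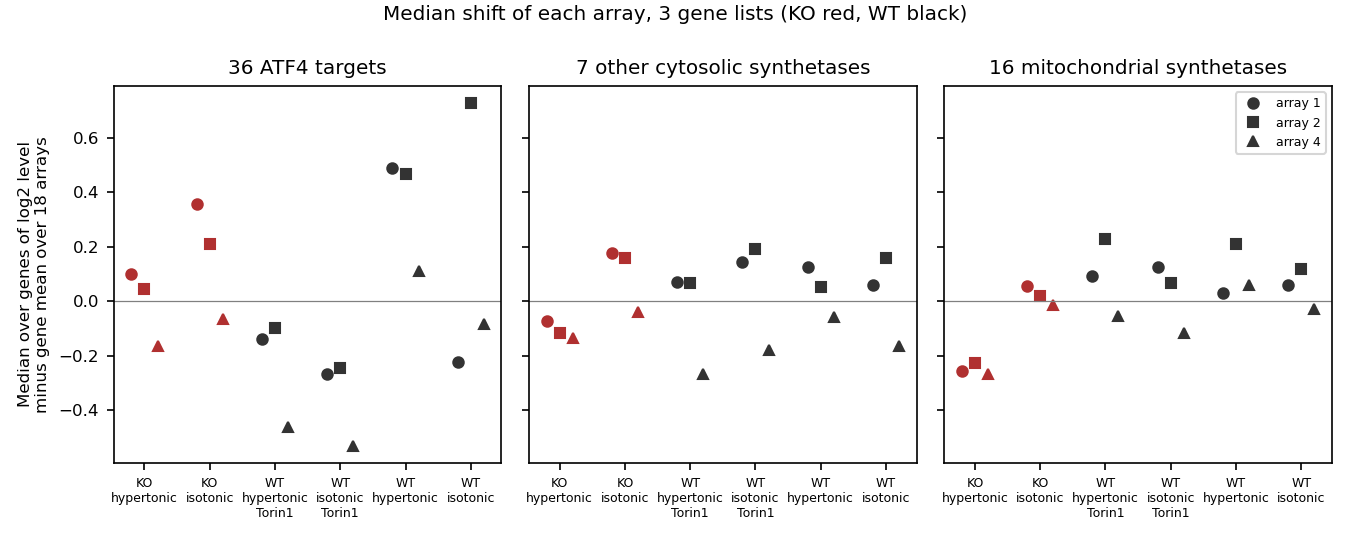
Median over genes of the log2 level minus the gene's mean over 18 arrays (vertical axis, log2) for each array, by group (horizontal axis), for 36 ATF4 targets, 7 other cytosolic and 16 mitochondrial tRNA synthetases; symbols give the array number and red marks KO. The ATF4 targets span -0.53 to 0.73, with isotonic WT array 2 highest, and the other cytosolic synthetases span -0.27 to 0.19.

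Torin1 was compared with no Torin1 within each medium, hypertonic medium first. The members were lower with Torin1: 33 of 36 changes were negative, with a median of -0.57, against 0.01 over all genes tested. The 3 Torin1 arrays lay wholly below the 3 arrays without it for 21 of 36 members, against 7.95% of all genes, and wholly above for 1 member (Cbs), against 7.68% of all genes. Within numbers the median change was -0.53, -0.55 and -0.65 for arrays 1, 2 and 4, and 31 members were lower in all 3 pairs, against 20.6% of all genes. By limma no member passed an adjusted p of 0.05, although 23 of 36 had an unadjusted p below 0.05; of all genes 18 passed (0.115%, with 0.0573% higher and 0.0573% lower) and 1907 had an unadjusted p below 0.05. With the array number as a block, 10 of 36 members fell and none rose, against 0.649% of all genes called lower and 0.751% called higher. Arrays of the same number deviated together, so the blocked test is given wherever it changes a call.

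Among the enzymes that make serine and feed one-carbon units into mitochondria, all 7 changes were negative, with a median of -0.91, and 3 fell with the block. Mthfd2, the mitochondrial folate enzyme of proliferating cells, read 9.72, 9.76 and 8.91 in hypertonic WT arrays with Torin1, against 11.10, 10.94 and 10.56 without it. The groups did not overlap, and the change was -1.41 ± 0.39 (adjusted p = 0.138 by limma, 0.0453 with the block). Psat1, which makes phosphoserine, read 11.26, 11.55 and 9.65 with Torin1, against 12.49, 12.39 and 11.44 without it. Array 4 without Torin1 lay below Torin1 array 2, so the groups overlapped, and the drop within each number was large; the change was -1.28 ± 0.50 (0.300, and 0.0354 with the block). Shmt2, the mitochondrial serine hydroxymethyltransferase, also overlapped and changed by -0.91 ± 0.39 (0.353, and 0.0499 with the block). Psph, the last enzyme of serine synthesis, did not overlap and passed neither test, with a difference of -0.99 ± 0.28 (0.135, and 0.0617 with the block).

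Of the 5 measured enzymes of asparagine, proline, alanine and cysteine, 4 had arrays wholly below and 3 fell with the block. Asns, asparagine synthetase, read 12.22, 12.19 and 11.82 in hypertonic WT arrays with Torin1, against 12.83, 12.77 and 12.52 without it. All 3 Torin1 arrays were below all 3 others, and the change was -0.63 ± 0.18 (adjusted p = 0.159 by limma, 0.0445 with the block). Gpt2, the mitochondrial alanine aminotransferase, read 9.62, 9.75 and 9.64 with Torin1, against 10.69, 10.68 and 10.40 without it. Here too the groups did not overlap, with a change of -0.93 ± 0.24 (0.119, and 0.0446 with the block). Aldh18a1, which starts proline synthesis, changed by -0.95 ± 0.28 (0.164, and 0.0446 with the block). Cth, which releases cysteine from cystathionine, differed by -1.26 ± 0.40 and passed neither test (0.185, and 0.0570 with the block). Cbs, which makes cystathionine, was the exception: 7.54, 7.50 and 7.71 with Torin1, against 7.41, 7.33 and 7.40 without it, a change of 0.20 ± 0.08 (0.328, and 0.206 with the block).

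Of the 11 measured tRNA synthetases, which charge tRNAs with amino acids, 10 changes were negative, 9 had arrays wholly below and 4 fell with the block. Cars, for cysteine, read 9.47, 9.76 and 9.06 in hypertonic WT arrays with Torin1, against 10.69, 10.67 and 10.29 without it. The lowest array without Torin1 lay above the highest with it, and the change was -1.12 ± 0.28 (adjusted p = 0.112 by limma, 0.0265 with the block). Yars, for tyrosine, read 10.28, 10.28 and 9.84 with Torin1, against 11.08, 11.16 and 10.97 without it. The groups were apart, with a change of -0.94 ± 0.23 (0.107, and 0.0225 with the block). Iars, for isoleucine, changed by -0.71 ± 0.22 and Nars, for asparagine, by -0.53 ± 0.13 (0.0321 and 0.0394 with the block). Mars1, for methionine, differed by -0.69 ± 0.26 and Tars, for threonine, by -0.60 ± 0.23, and neither passed. Outside the 38 genes, 7 other cytosolic synthetases had a median change of 0.00 and 16 mitochondrial ones of -0.10, with 0 called in each.

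Of the 9 regulators, all 9 changes were negative, 6 had arrays wholly below, and none passed with or without the block. Atf4 mRNA read 9.25, 9.01 and 9.09 in hypertonic WT arrays with Torin1, against 9.72, 9.44 and 9.27 without it. The groups did not overlap by a narrow margin, and the change was -0.36 ± 0.16 (adjusted p = 0.385 by limma, 0.225 with the block). Chac1 and Trib3 had the largest estimates of the group, -1.55 ± 0.56 and -1.31 ± 0.47 (0.242 and 0.240). Jdp2 and Cebpg, partners in bZIP dimers, differed by -0.65 ± 0.19 and -0.41 ± 0.22, and Atf5, a close relative of ATF4, by -0.48 ± 0.22. Ddit3, the CHOP factor, read 8.41, 8.41 and 8.45 with Torin1, against 8.81, 8.35 and 8.19 without it, with the 3 Torin1 arrays inside the range of the others. Among the 4 other targets (Vldlr, a lipoprotein receptor, Stc2, a secreted glycoprotein, Eif4ebp1, a translation repressor, and Pck2, mitochondrial PEPCK) the median change was -0.20 and no arrays were wholly apart.

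Without single arrays the hypertonic Torin1 result held its direction, with a members' median between -0.66 and -0.44. The count of members called was 4 when isotonic WT array 1, which enters only the estimate of the spread, was left out, 1 when array 2 was, and 5 without the arrays numbered 4. Such a change of the spread acts on every gene, and the shares of all genes called in those fits are not given here. Of 19 other ATF4-linked genes, 17 changes were negative with a median of -0.76 and none passed; with the block 3 amino acid transporters fell: Slc7a1 by 1.24, Slc1a4 by 1.05 and Slc7a5 by 0.95 on the log2 scale.

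In isotonic medium 34 of 36 members were also lower with Torin1, with a median of -0.43 against 0.01 over all genes, and none passed. By limma 0 of 15711 genes passed (0%) with or without the block, 17 members and 470 genes had an unadjusted p below 0.05, and 4 members (Atf5, Mthfd2, Aldh1l2 and Aldh18a1) had arrays wholly below, against 2.53% of all genes, with 0 wholly above, against 3.49%. The estimate rested on the array number: the members' median was 0.01 within number 1, -0.90 within number 2 and -0.54 within number 4. Leaving out isotonic WT array 1 gave a median of -0.65, and leaving out array 2 gave -0.20.

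Mthfd2 read 8.94, 9.07 and 8.22 in isotonic WT arrays with Torin1, against 9.17, 11.14 and 10.29 without it, a change of -1.46 ± 0.39 (adjusted p = 1 by limma). The groups did not overlap, but array 1 without Torin1 lay only 0.23 above its number-matched Torin1 array. Without isotonic WT array 1, Mthfd2 (-1.97, adjusted p = 0.0437 by limma) and Cth (-1.71, 0.0456) passed. Leaving out that array favours a larger drop, because the members' median change within number 1 was 0.01. The share of all genes called in that fit is not given here. Asns read 12.20, 12.21 and 11.76 with Torin1, against 12.19, 12.98 and 12.28 without it, and the groups overlapped at array 1, with a change of -0.42 ± 0.18. Atf4 read 9.08, 9.13 and 8.97 with Torin1, against 9.03, 9.72 and 9.37 without it, again overlapping at array 1. The test of the difference between the hypertonic and isotonic Torin1 effects called 0 of 36 members and 0 of 15711 genes (0%; 0 members and 317 genes at an unadjusted p below 0.05), with a members' median of -0.11. That median was 0.09 when isotonic WT array 1 was left out, and ran from -0.35 when array 2 was to 0.18 without the arrays numbered 1, so a difference in size between the media was not resolved.

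**Figure D3:**
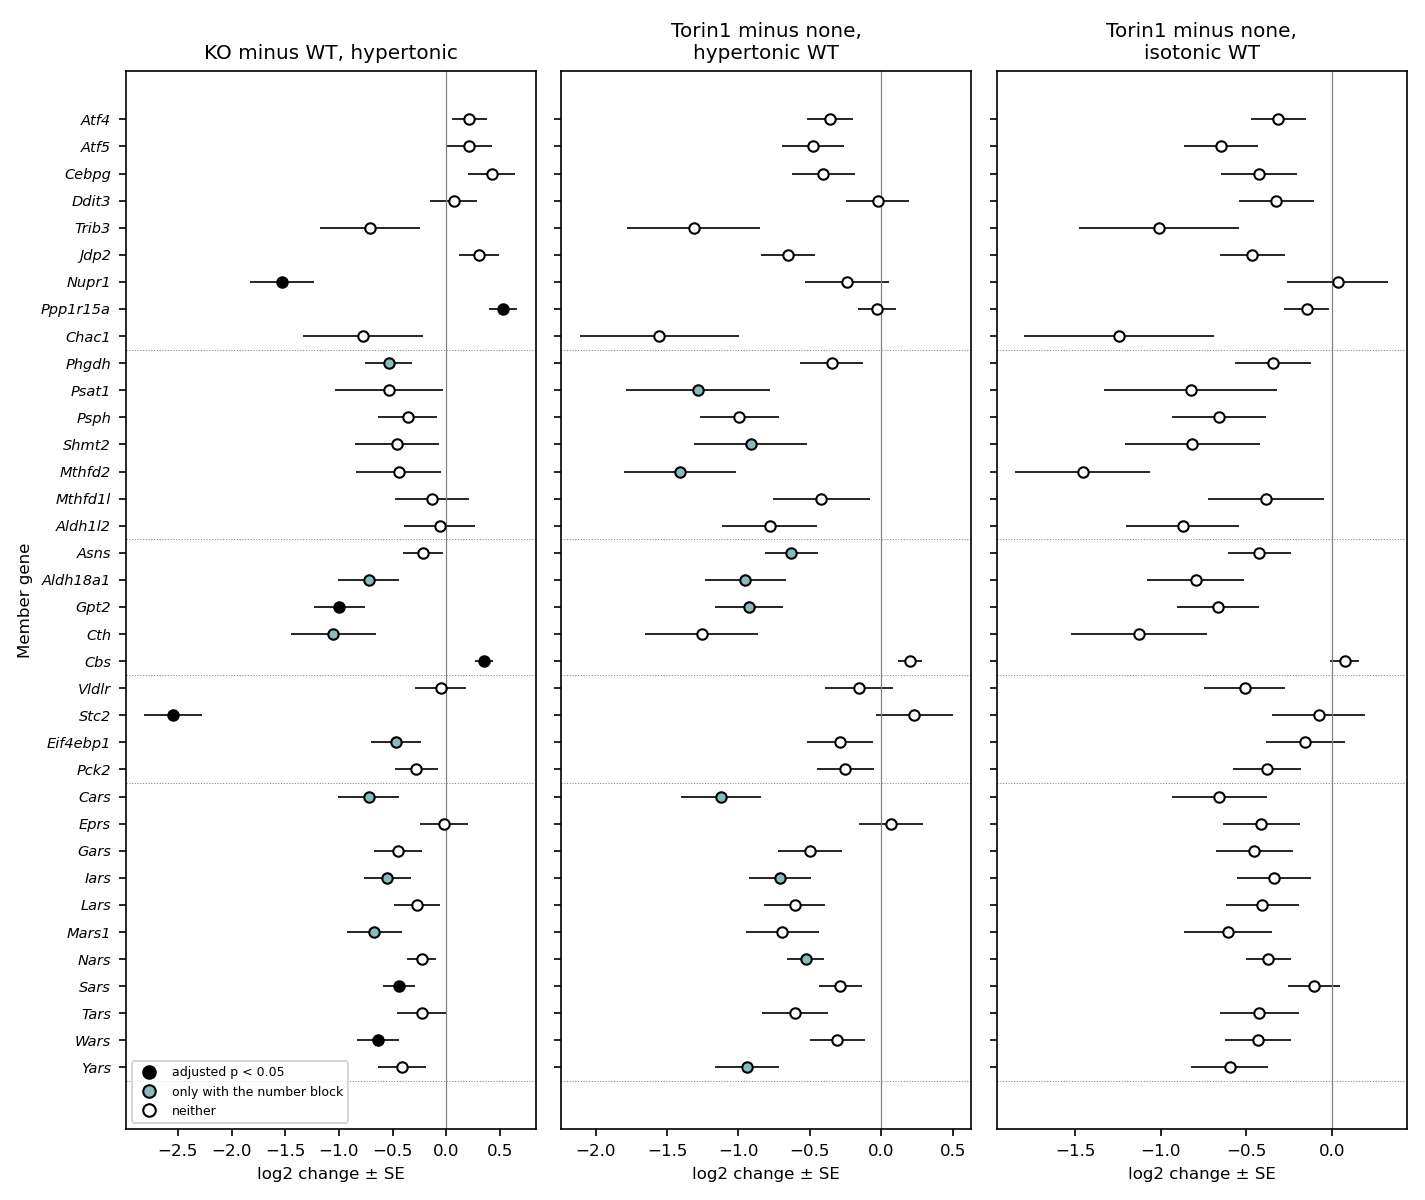
Log2 change ± standard error (horizontal axes, each panel on its own scale) of 36 ATF4 target genes (vertical axis) for hypertonic KO minus hypertonic WT, and for Torin1 minus no Torin1 in hypertonic and in isotonic WT cells, with n = 3 arrays per group. Black points passed an adjusted p of 0.05 and blue-green points passed only with the array number as a block, 7 and 10 of them in the first 2 panels and none in the third.

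Few members were called for hypertonic medium alone in WT cells, a comparison that the spread of the isotonic WT arrays makes imprecise. By limma 1 of 36 members rose and 0 fell, against 3.94% of all genes called higher and 4.3% lower (8.24% in all), and the members' median change was 0.18, against 0.02 over all genes. The member was Cars, which read 10.69, 10.67 and 10.29 in hypertonic WT arrays, against 8.99, 10.30 and 9.41 in isotonic WT arrays. Isotonic array 2 reached the hypertonic range, and the change was 0.99 ± 0.28, or 1.98-fold (adjusted p = 0.0413, 0.00564 with the block). With the block Phgdh, the first enzyme of serine synthesis (0.43), Psat1 (0.87), Shmt2 (0.78) and Iars (0.57) also rose, so that 5 members were higher and 0 lower, against 7.4% and 7.63% of all genes. The count was 3 without isotonic WT array 2 and 5 without the arrays numbered 4, with no share of all genes given for those fits. No member had arrays wholly apart, against 13.5% of all genes wholly above and 11.8% wholly below.

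The Cars call was lost in 12 of 30 alternatives, among them the leaving out of isotonic WT array 1 or 4, hypertonic WT array 1 or 2, Torin1 array 1 of either medium, isotonic KO array 2, hypertonic KO array 1 or 2, and all arrays numbered 1 or 2. The members' median was 0.64 within number 1, -0.27 within number 2 and 0.19 within number 4. It became -0.05 when isotonic WT array 1 was left out and 0.48 when array 2 was. Asns read 12.83, 12.77 and 12.52 in hypertonic WT arrays, against 12.19, 12.98 and 12.28 in isotonic WT arrays, and Atf4 read 9.72, 9.44 and 9.27, against 9.03, 9.72 and 9.37. Both overlapped. Ddit3 read 8.81, 8.35 and 8.19 in hypertonic WT arrays, against 8.62, 9.46 and 8.48 in isotonic WT arrays, also overlapping. In cells given Torin1, hypertonic medium called 0 of 36 members (1 at an unadjusted p below 0.05), against 1.65% of all genes higher and 1.72% lower (3.37% in all), with a median change of 0.13; with the block 0 members passed too, against 4.08% and 3.78% of all genes, and no array left out changed that count.

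In KO cells hypertonic medium changed 2 members in opposite directions. Ppp1r15a, the GADD34 subunit that directs a phosphatase to eIF2, read 9.26, 9.44 and 9.16 in hypertonic KO arrays, against 8.38, 8.34 and 8.28 in isotonic KO arrays. Every hypertonic array was above every isotonic one, and Ppp1r15a rose by 0.95 ± 0.13, or 1.93-fold (adjusted p = 7.47e-05 by limma). Pck2, the mitochondrial enzyme that makes phosphoenolpyruvate, read 10.18, 9.98 and 9.88 in hypertonic KO arrays, against 11.02, 10.73 and 10.78 in isotonic KO arrays. These did not overlap either, and Pck2 fell by 0.83 on the log2 scale, with a standard error of 0.20 (0.00469). The counts of 1 member higher and 1 lower stand against 12.9% and 17.2% of all genes (30.1% in all). The Ppp1r15a call held under all 30 alternatives, and Pck2 missed the threshold without the arrays numbered 1 (0.0693).

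The members' median change in KO cells was -0.16, against 0.02 over all genes, and it was -0.01 with arrays centred on their medians, a scaling that raised the all-gene median by 0.15 and the share of higher calls among all genes to 68.9%, against 42.9% as deposited. With the block 8 members passed: Stc2 rose (0.46), and Aldh18a1 (-0.74), Vldlr (-0.64), Eprs, for glutamate and proline (-0.57), Lars, for leucine (-0.49), and Wars, for tryptophan (-0.47), fell as well, against 15.9% of all genes called higher and 20.5% lower. The count was 4 when isotonic WT array 1 was left out, 6 when array 2 was, 4 without isotonic KO array 4, 1 without the arrays numbered 1 and 6 without those numbered 4. For those fits the share of all genes called is not given here. Atf4 read 9.80, 9.84 and 9.43 in hypertonic KO arrays, against 9.39, 9.43 and 9.19 in isotonic KO arrays, overlapping, and the difference of 0.36 ± 0.16 did not pass (adjusted p = 0.115 by limma). Asns read 12.51, 12.47 and 12.48 in hypertonic KO arrays, against 12.73, 12.79 and 12.52 in isotonic KO arrays, and Ddit3 read 8.66, 8.68 and 8.21, against 9.01, 8.84 and 8.60. Asns did not overlap and Ddit3 did, and neither passed.

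**Figure D4:**
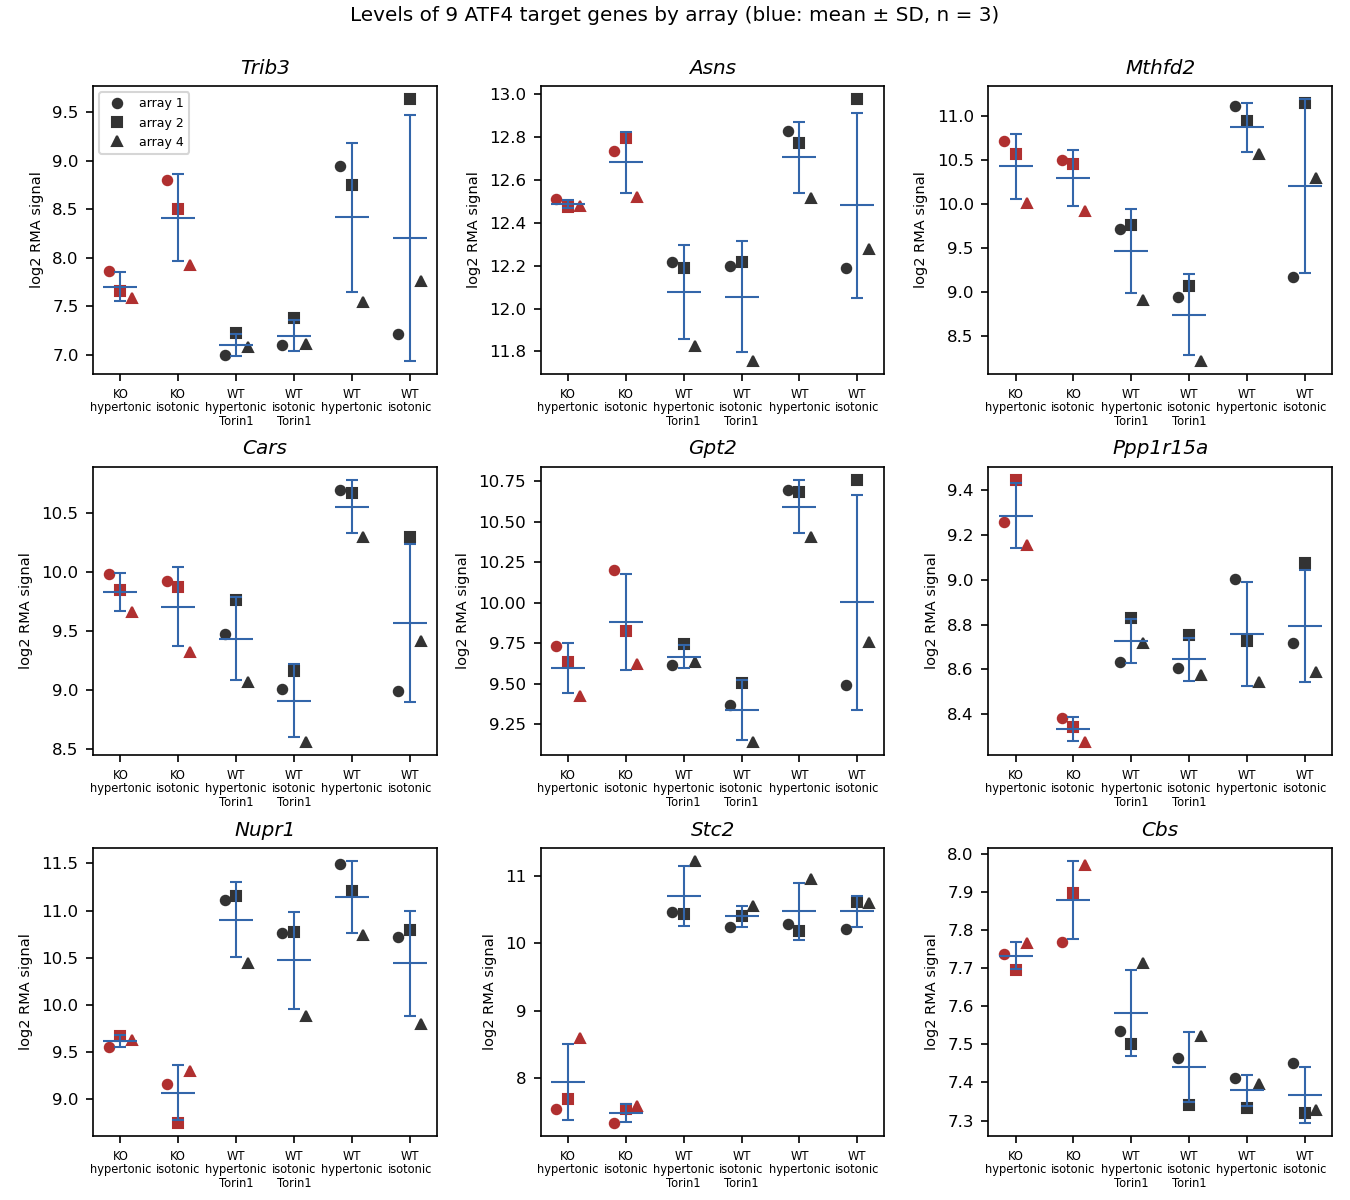
Log2 RMA signal (vertical axes, each gene on its own scale) of 9 ATF4 target genes in the 18 arrays, by group (horizontal axis); symbols give the array number, red marks KO, and blue bars are mean ± SD of 3 arrays. Stc2 and Nupr1 are low in all 6 KO arrays, Ppp1r15a is high in the 3 hypertonic KO arrays, and Trib3 and Mthfd2 spread widely in isotonic WT cells.

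The lines differed at a few members in both media. The comparison of KO with WT asks for the part of Nfat5, and here the cell line goes with it. Stc2, a secreted glycoprotein hormone, read 7.53, 7.69 and 8.59 in hypertonic KO arrays, against 10.28, 10.19 and 10.96 in hypertonic WT arrays. It read 7.33, 7.54 and 7.58 in isotonic KO arrays, against 10.21, 10.62 and 10.61 in isotonic WT arrays. No KO array came near a WT array, and the changes were -2.54 ± 0.27 in hypertonic and -3.00 ± 0.27 in isotonic medium (adjusted p = 5.25e-06 and 1.03e-06 by limma), or 0.172-fold and 0.125-fold.

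Nupr1, a small stress-induced chromatin protein, read 9.55, 9.67 and 9.63 in hypertonic KO arrays, against 11.49, 11.20 and 10.74 in hypertonic WT arrays. It read 9.16, 8.75 and 9.30 in isotonic KO arrays, against 10.72, 10.79 and 9.80 in isotonic WT arrays. It was lower in KO with no overlap in either medium, by -1.53 ± 0.30 in hypertonic (adjusted p = 0.000989 by limma) and -1.37 ± 0.30 in isotonic medium (0.00438). Cbs read 7.74, 7.70 and 7.77 in hypertonic KO arrays, against 7.41, 7.33 and 7.40 in hypertonic WT arrays, and 7.77, 7.90 and 7.97 in isotonic KO arrays, against 7.45, 7.32 and 7.33 in isotonic WT arrays. It was higher in KO with no overlap, by 0.35 ± 0.08 (0.00440) and 0.51 ± 0.08 (0.000461). Ppp1r15a went in opposite directions: 9.26, 9.44 and 9.16 in hypertonic KO arrays, against 9.01, 8.73 and 8.54 in hypertonic WT arrays, and 8.38, 8.34 and 8.28 in isotonic KO arrays, against 8.72, 9.07 and 8.59 in isotonic WT arrays. It was 0.53 ± 0.13 higher in hypertonic (0.00635) and 0.46 lower in isotonic medium (-0.46 ± 0.13, 0.0284).

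In isotonic medium these 4 were the members called, 1 higher and 3 lower, against 7.78% and 6.84% of all genes, and the members' median change was 0.04. None of the other 32 passed with the block either, against 10.7% of all genes called higher and 10.2% lower. With isotonic KO array 1 counted as WT, 0 of 36 members and 0 of 15711 genes passed. That array read 7.33 for Stc2, against 7.54 and 7.58 in the other isotonic KO arrays and 10.21 to 10.62 in isotonic WT arrays. Its difference from isotonic WT array 1 was 3.49 for the fibroblast marker Thy1 and -5.81 for the neuronal marker Stmn2. Within number 2 these differences were 4.16 and -6.20, and within number 4 they were 3.99 and -3.23. This alternative thus places an array with the levels of the KO line among WT arrays. The Nupr1 call was also lost without the arrays numbered 1 or 2, the Cbs call without those numbered 2, and the Ppp1r15a call without isotonic WT array 2, any isotonic KO array, or the arrays numbered 1 or 2. A fit on only the groups compared lost the Ppp1r15a call too. The count was 2 without the arrays numbered 1 and 1 without those numbered 2, and the median ran from -0.26 without number 1 to 0.30 without isotonic WT array 2. With isotonic WT array 1 left out, the count stayed at 4 and the median was -0.17.

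In hypertonic medium 3 more members were lower in KO, which made 2 higher and 5 lower, against 13.8% and 18% of all genes. Gpt2 read 9.73, 9.63 and 9.42 in hypertonic KO arrays, against 10.69, 10.68 and 10.40 in hypertonic WT arrays. The groups were wholly apart, with a change of -0.996 ± 0.24 (adjusted p = 0.00483 by limma), and it passed under all 30 alternatives. Wars read 9.93 to 10.01 in hypertonic KO arrays, against 10.52 to 10.69 in hypertonic WT arrays, and Sars, for serine, read 11.75, 11.62 and 11.55, against 12.17, 12.22 and 11.84. Neither overlapped, with changes of -0.64 ± 0.20 (0.0202) and -0.44 ± 0.15 (0.0358), and both missed the threshold with arrays centred on their medians. The Wars call was also lost without hypertonic WT array 2, hypertonic KO array 2 or 4, or the arrays numbered 1 or 2, and the Sars call without those and without hypertonic WT array 1.

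The members' median change in hypertonic medium was -0.43, against 0.04 over all genes; 15 of 36 members had KO arrays wholly below and 3 wholly above, against 23% and 21.8% of all genes. With the block Cth (-1.05), Cars (-0.72), Aldh18a1 (-0.72), Mars1 (-0.67), Iars (-0.55), Phgdh (-0.54) and Eif4ebp1 (-0.47) were lower as well, giving 2 higher and 12 lower, against 17.2% and 22% of all genes. The count without the block was 11 when isotonic WT array 1 or 2 was left out, 10 without hypertonic WT array 4, 3 without the arrays numbered 1 or 2, and 17 without those numbered 4. The shares of all genes called in those fits are not given here, so these counts do not single out the members. Among calls shared by both media, Nupr1 missed the threshold in hypertonic medium without number 1, Ppp1r15a without number 2, and Cbs without either number. All 11 synthetases had a negative change with a median of -0.44, and 8 were wholly below. The median of all 36 was -0.28 with arrays centred on their medians, where the all-gene median was 0.18 and 69.8% of calls among all genes were higher, against 43.4% as deposited. Asns read 12.51, 12.47 and 12.48 in hypertonic KO arrays, against 12.83, 12.77 and 12.52 in hypertonic WT arrays; the groups did not overlap, and the change of -0.22 ± 0.18 did not pass (0.397). This comparison and that of Torin1 in hypertonic medium share the hypertonic WT arrays; those of KO and Torin1 in isotonic medium, and the hypertonic effect in WT, share the isotonic WT arrays.

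Markers of cell types also differed between the lines. The mean of 12 fibroblast markers was 11.43 to 11.88 in hypertonic KO arrays, against 10.65 to 10.83 in hypertonic WT arrays, and 11.65 to 12.01 in isotonic KO arrays, against 10.68 to 10.81 in isotonic WT arrays. These means are carried by a few genes: in hypertonic medium 5 of 12 were higher in KO and 0 lower, namely Dcn (4.02), Thy1 (4.01), Lum (2.53), Pdgfra (1.86) and Col3a1 (0.67), while the median over the list was 0.10 and 3 changes were negative. In isotonic medium 4 of 12 were higher in KO and 0 lower (6 and 0 with the block), with a median of 0.52 and 4 negative changes. The mean of 3 neuronal markers was 6.76 to 7.85 in hypertonic KO arrays, against 7.80 to 9.49 in hypertonic WT arrays, and 7.20 to 8.13 in isotonic KO arrays, against 8.12 to 10.23 in isotonic WT arrays. Stmn2 was lower in KO (-4.74 in hypertonic and -5.08 in isotonic medium), whereas Map2 was 0.95 higher in hypertonic medium with the block (adjusted p = 0.00155 by limma, 0.388 without it). Markers of other lists differed as well. In hypertonic KO cells Tek (2.44), Cdh1 (0.79) and Lyz2 (0.59) were higher and Csf1r (-1.36) was lower than in hypertonic WT cells. In isotonic KO cells Tek (2.05), Cdh1 (1.72), Lyz2 (0.69), Des (0.60) and Nanog (0.56) were higher than in isotonic WT cells. The part of these markers in the members' differences was not tested. Of 16 mitochondrial synthetases 5 were lower in hypertonic KO cells, led by Pars2 (-1.23) and Nars2 (-1.01), with a median of -0.22; 18% of all genes were called lower and 13.8% higher in that comparison. Of 7 other cytosolic synthetases 2 were lower, Rars (-0.41) and Farsb (-0.32), and 1 higher, Farsa (0.31). Of 14 genes for the eIF2 kinases, eIF2 and eIF2B, 4 were lower, led by the exchange factor subunit Eif2b3 (-1.38), and 2 higher, the kinase Eif2ak4 (0.62) and the phosphatase subunit Ppp1r15b (0.53). The 19 other ATF4-linked genes did not share the members' lower median in hypertonic KO cells. Their median change was 0.08, with 9 negative changes, 2 higher, Cebpb (1.34) and Slc1a5 (0.57), and 0 lower (3 and 3 with the block). In isotonic medium their median was 0.06, with 2 higher in KO, Slc1a5 (1.61) and Ddit4 (1.16), and 0 lower, against 7.78% and 6.84% of all genes.

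The difference between the hypertonic effect in KO cells and that in WT cells was tested for every member, and 1 passed. The hypertonic effect on Ppp1r15a was 0.95 in KO cells and -0.03 in WT cells, where its sign turned with the arrays used, a difference of 0.99 ± 0.19 (adjusted p = 0.00495 by limma), and 1 member higher and 0 lower stand against 3.35% and 6.15% of all genes (9.5% in all). With the block 1 was higher and 1 lower, against 5.54% and 8.97% of all genes. Over the 36 members the median difference was -0.39, against -0.01 over all genes, and 29 were negative. The count was 8 when isotonic WT array 2 was left out, with a median of -0.67, 2 when array 1 was, and 0 without the arrays numbered 1 or 2, with a median of -0.11 without number 1. No share of all genes is given for those fits, so the counts do not set the members apart. Of all genes called, 35.3% were higher as deposited, 47.9% after a second quantile normalization and 69.8% with arrays centred on their medians.

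Over the 9 comparisons 9 of the 36 members passed at least 1 test without the block, against 49.4% of all genes, and 24 with or without it, against 59.8%. The 12 that passed none were 7 regulators (Atf4, Atf5, Cebpg, Ddit3, Trib3, Jdp2 and Chac1), the serine and one-carbon genes Psph, Mthfd1l and Aldh1l2, and the synthetases Gars and Tars. Of the 8 genes outside the 38 that carry folate and serine metabolism, Mthfd1 rose by 0.62 in hypertonic WT cells and by 0.57 in those with Torin1, Gldc was 0.52 higher in isotonic KO than in isotonic WT cells, and Tyms (0.57) and Gldc (0.48) were higher in hypertonic KO than in hypertonic WT cells.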

How the data were processed

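Total RNA of 18 samples in 6 groups of 3 was hybridised to Affymetrix mouse gene arrays. The deposited values are log2 signals that the authors made with RMA in R 2.11.1, per the submitters' processing notes, with no build named there. They were used as deposited. Of 34760 probe sets 21640 name 1 gene, and each of 19937 genes was read from its probe set with the highest mean. Genes whose highest group mean passed the 30th percentile of all values (5.856 on the log2 scale) were kept, 15711 in all. Iars alone among the members had several probe sets.

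limma 3.58.1 in R 4.3.3 estimated 6 group means from the 18 arrays together (12 residual and 3.29 prior degrees of freedom) and tested 9 contrasts, each with Benjamini-Hochberg adjustment over all genes tested. The fit was also run on simulated data with independent arrays. That run does not cover arrays that deviate together by number. Same-numbered arrays were checked for pairing across groups: their deviations from group means correlated at 0.0945 to 0.847 over 45 pairs. In the groups compared directly the lowest was 0.156, so the number was also fitted as a block. What a number marks is not stated. Alternatives were other filters, probe set averaging, quantile normalization or centring again, a trended robust prior, fits on only the groups compared, the block, isotonic KO array 1 as WT, and each array or number left out.

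The members and lists were chosen with earlier results of these data known. The rule for naming genes gave per-array values for Atf4, Asns, Ddit3 and the members called with the largest changes in each role, and named every called member; other members named with values were chosen after their values were seen. Promoter sequences are RefSeq's, assembly GRCm38.p6.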

Additional observations from a re-analysis of the deposited data

Results flagged for a closer look

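The response of Ppp1r15a to hypertonic medium differed between the lines by a test of the difference itself, 0.99 on the log2 scale (adjusted p = 0.00495 by limma). It read 9.29 ± 0.15 in hypertonic KO cells, against 8.33 ± 0.05 in isotonic KO cells, and 8.76 ± 0.23 in hypertonic WT cells, against 8.79 ± 0.25 in isotonic WT cells (SD, n = 3 each). The difference ran from 0.75 to 1.19 with single arrays or all arrays of a number left out. Under the 30 alternatives it missed the threshold only without the arrays numbered 1 or 2. Genotype and line cannot be told apart.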

How the results depend on the processing

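Leaving out single arrays or all arrays of a number moved the count of members called from 0 to 5 for the hypertonic effect in WT cells, 1 to 6 in KO cells, 0 to 2 for Torin1 in isotonic and 0 to 5 in hypertonic medium, 1 to 4 for KO against WT in isotonic and 3 to 17 in hypertonic medium, and 0 to 8 for the difference of the hypertonic effect between lines. With Torin1 the hypertonic effect, and its difference from that without, stayed at 0 throughout. Here and above, counts from refits without arrays show how stable the calls were. They are not set against the share of all genes called in the same refit. With the replicate number as a block the counts were 5, 8, 10, 14 and 2 for the hypertonic effect in WT and in KO cells, Torin1 in hypertonic medium, KO against WT in hypertonic medium and the difference between lines, where the block added Aldh18a1 (-0.95, adjusted p = 0.0494 by limma); 1 pair there correlated at only 0.0945. The block lost none of the 15 calls and changed no other count. Fits on only the groups compared gave 0 for the hypertonic effect in WT, 7 in KO cells and 13 for KO against WT in hypertonic medium. A second quantile normalization gave 11 for the last. Counting isotonic KO array 1 as WT left 0 for KO against WT in isotonic medium. The causes were not tested. Counts under other filters, probe set averaging, centring and the trended robust prior stayed within 1.5 times. The hypertonic effect on Ppp1r15a in WT cells (-0.03, not called) turned its sign to 0.0676 with isotonic KO array 1 counted as WT, and ran from -0.20 to 0.12 with arrays left out: leaving out isotonic WT array 2 gave 0.11, hypertonic WT array 4 gave 0.07, and all arrays numbered 2 gave 0.12. Among the other changes of single genes put through the alternatives, none turned its sign. The members' median change did turn its sign with arrays left out, as given above, for the hypertonic effect in WT cells. It also did so for KO against WT in isotonic medium and for the difference between the Torin1 effects in hypertonic and isotonic medium.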
